A study of Mus musculus with 9 samples.

Results

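Glycolysis and hypoxia response genes were followed in 9 RNA-seq libraries of neuroglial progenitors from the third ventricular zone of the newborn mouse brain. The set held 38 genes, chosen by symbol from a list of glycolytic enzymes, glucose and lactate transporters, hypoxia-inducible factor (HIF) genes and genes induced by low oxygen. All 38 were among the 18329 genes of the deposited table, and all 38 passed the filter on low values, which left 16143 genes tested. The mice carried Nestin-CFPnuc, a nuclear cyan fluorescent protein driven by the Nestin promoter, on a C57/BL6 background, received no treatment and were taken at postnatal day 1. Cells were separated by FACS into CD133+Nestin+, Nestin+ and CD133+ populations, with 3 libraries each. Nestin+ refers to the CFP reporter, so this population holds the cells in which that promoter was active, and the labels do not say whether cells sorted for a single marker lacked the other. Each library has a sort number from 1 to 3 in the labels, equal to its passage number, and nothing states that the libraries came from separate animals, so the spread behind each p-value is that between libraries and may be technical.

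Glycolysis converts glucose, which enters through transporters such as Slc2a1, to pyruvate. Lactate dehydrogenase interconverts pyruvate and lactate, monocarboxylate transporters such as Slc16a1 carry lactate across the membrane, and pyruvate dehydrogenase kinases inhibit the mitochondrial enzyme that turns pyruvate into acetyl-CoA. HIF pairs an oxygen-sensitive alpha subunit, encoded by Hif1a or Epas1, with a stable partner. Prolyl hydroxylases of the Egln family mark the alpha subunits for degradation when oxygen is present, so that HIF is set mainly at the protein level, which RNA does not measure. Stabilised HIF binds short motifs with the core ACGTG or GCGTG and raises transcription of many glycolytic and angiogenic genes.

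Values are CPM, read counts scaled to a common library total, as inferred from the table, and a change is a difference of mean log2(CPM + 1), which understates the change of low genes. A gene was called at an adjusted p under 0.05 (limma, Benjamini-Hochberg over all 16143 genes). Transcripts of the sort markers followed the labels: Prom1, which encodes CD133, had 116 to 181 CPM in CD133+Nestin+, 39.3 to 58.1 CPM in Nestin+ and 146 to 182 CPM in CD133+ libraries. Nes had 172 to 212 CPM in CD133+Nestin+, 157 to 195 CPM in Nestin+ and 39.5 to 57.3 CPM in CD133+ libraries. The listed genes held 65.9% to 87.6% of the CPM total of their library, and the lowest share was in the CD133+Nestin+ library of sort 2. Judged by the steps between low values, 3 reads would be worth 0.086 to 0.103 CPM, a limit set by counting alone.

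Per kilobase of exon, the most abundant members were glycolytic enzymes. Aldoa, the aldolase of this pathway, led with 290 ± 73.8 CPM per kb in CD133+Nestin+, 222 ± 84.8 in Nestin+ and 233 ± 49.1 in CD133+ libraries (SD, n = 3 each). The lactate dehydrogenase subunits Ldhb and Ldha came next, with means over all libraries of 183 and 152 CPM per kb, followed by pyruvate kinase Pkm at 124 and enolase Eno1 at 105. The ranges of mean ± SD of neighbours in this order overlapped in each population. The order also depends on the length used, that of all annotated exons of a gene merged and not of 1 transcript. It was 1570 bases for Ldhb and 3310 for Ldha. In CPM, Ldha was above Ldhb in every library but the Nestin+ library of sort 3, with a ratio of 0.85. The least abundant members were Slc16a3, a lactate exporter, at 0.65 CPM per kb, and Ndrg1, a gene induced by low oxygen, at 0.963 CPM per kb. Gapdh, the glyceraldehyde-phosphate dehydrogenase, was listed at only 10.9 to 44.5 CPM. Its transcript has 92 near-identical copies in the annotation (at least 95% identity over 300 bases), 88 of them pseudogenes. The 48 copies that are in the table summed to 18.2 to 30.8 CPM. The sources used here do not give how reads matching several copies were assigned, so the level of Gapdh is uncertain, as are those of the other 10 members with such a copy. Exons of 14 members overlap those of another gene. For Eno1, copies in the table summed to 460 to 1890 CPM, against 246 to 994 CPM for Eno1 itself.

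**Figure D1:**
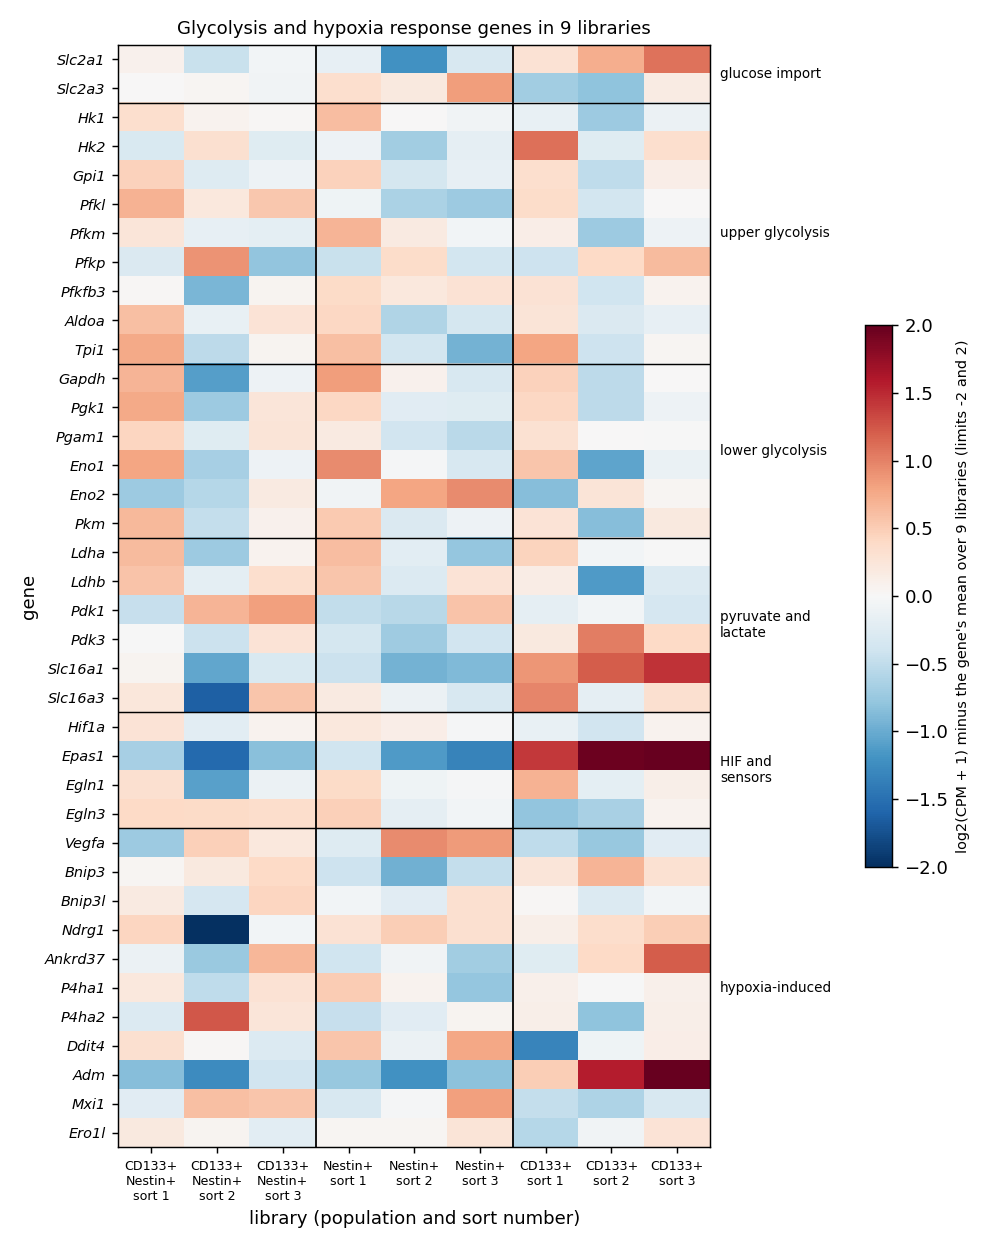
Log2(CPM + 1) of each of the 38 genes minus its mean over the 9 libraries, from blue (lower) to red (higher), with colours limited at -2 and 2. Rows run by role and columns by population, with sort numbers 1 to 3 within each. Epas1, Slc16a1 and Adm are red in the 3 CD133+ columns, and most glycolytic enzymes are red in the sort 1 column of every population.

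In Nestin+ against CD133+ libraries, 5 of the 38 genes were lower and 0 were higher. Over all genes tested, 9.42% were lower and 2.45% were higher. The 5 were Epas1, Slc16a1, Adm, Slc2a1 and Bnip3. At an unadjusted p under 0.05, 8 members differed in either direction, as did 3720 of all 16143 genes tested. By overlap alone, 6 members had every Nestin+ library below every CD133+ library and 2 the reverse, as did 21.1% and 11.8% of all genes. The median change over the 38 was 0.01, against -0.02 over all genes tested. In the authors' deposited table, the same 5 members had a step-up false discovery rate under 0.05, as did 9.07% of all its genes. In CD133+Nestin+ against CD133+ libraries, 3 members were lower and 0 higher, where 2.12% and 0.297% of all genes were. These were Epas1, Slc16a1 and Adm, and 6 members had an unadjusted p under 0.05, as did 2030 of all 16143 genes. Every CD133+Nestin+ library lay below every CD133+ library for 4 members and above for 3, as for 10.9% and 6.55% of all genes. The median change over the 38 was 0.04, against -0.06 over all genes. The authors' deposited table had 2 members under its threshold here, Slc16a1 and Epas1, and 0.955% of all genes. Both comparisons use the same CD133+ libraries, so they are not independent. A limma F test over the 3 populations called 4 members, Epas1, Slc16a1, Adm and Bnip3, where 9.5% of all genes were called. With the sort number as a block it called 7, with Slc2a1, Ldhb and Pfkl added, where 16.5% of all genes were called. Without the Nestin+ or the CD133+ library of sort 2, the F test with no block called 2 members, Epas1 and Slc16a1, where 5.4% and 6.35% of all genes were called.

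**Figure D2:**
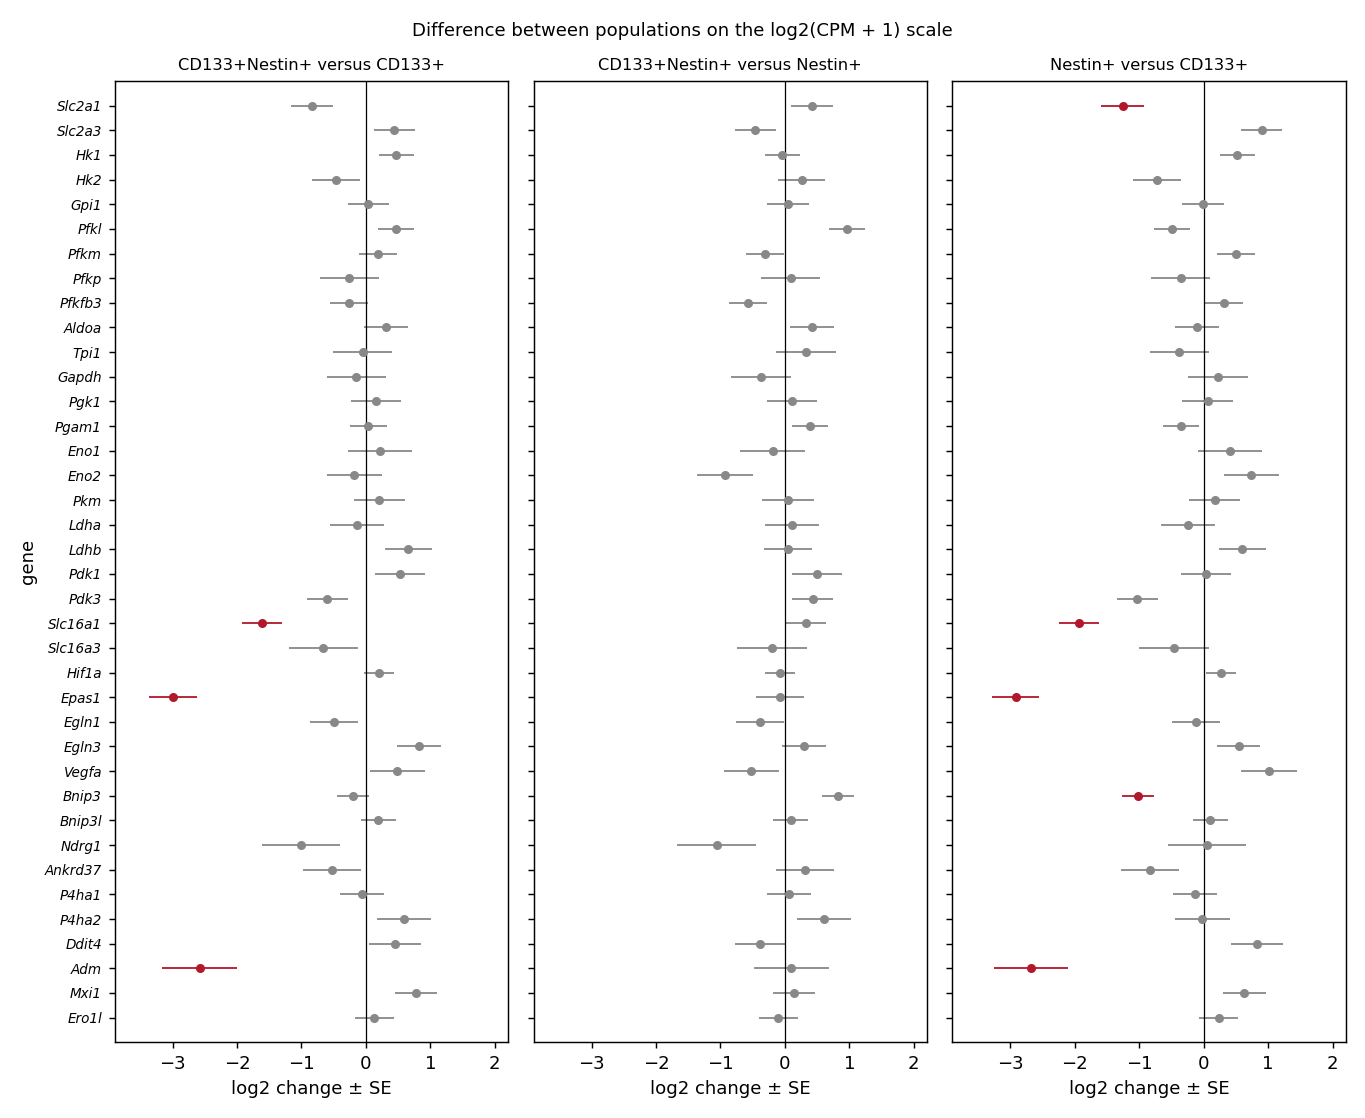
Change in log2(CPM + 1) with its standard error for each of the 38 genes in the 3 comparisons, with red points for an adjusted p under 0.05. Red points lie to the left of 0: Epas1, Slc16a1 and Adm in both comparisons with CD133+, and Slc2a1 and Bnip3 in Nestin+ versus CD133+.

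Epas1, the HIF alpha subunit known for its high level in blood vessel endothelium (chr17:86753700-86833410, plus strand, GRCm38, protein-coding), differed most. It had 18.4, 9.51 and 16.4 CPM in CD133+Nestin+ libraries, 22.4, 13.1 and 11.3 CPM in Nestin+ libraries, and 81.1, 119 and 180 CPM in CD133+ libraries. All 6 libraries sorted for the Nestin reporter lay below every CD133+ library. The change was -2.92 ± 0.37 (SE) in Nestin+ versus CD133+ (limma adjusted p = 0.000595) and -2.99 ± 0.37 in CD133+Nestin+ versus CD133+ (adjusted p = 0.00214). Both calls held in every alternative tried, with adjusted p of at most 0.00525 and 0.0216. Between CD133+Nestin+ and Nestin+ libraries the groups overlapped and the change was -0.07 ± 0.37. Hif1a, the more widely expressed alpha subunit, had 50.5, 35.7 and 43.5 CPM in CD133+Nestin+ libraries, 48.3, 45.6 and 41 CPM in Nestin+ libraries, and 37.2, 31.6 and 43.6 CPM in CD133+ libraries. The populations overlapped, and no comparison of Hif1a was called. Its smallest limma adjusted p was 0.591 with no block and 0.412 with the sort number as a block, both for Nestin+ versus CD133+. An antisense gene overlaps 330 bases of Hif1a exons and a gene on the same strand overlaps 148 bases, and the sources used here do not give whether counting used strand.

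The other called members were the transporters Slc16a1 and Slc2a1 and the genes Adm and Bnip3, which are induced by low oxygen. Slc16a1, a monocarboxylate transporter also found in brain endothelium (chr3:104638668-104658462, plus strand), had 55.1, 25.3 and 42.4 CPM in CD133+Nestin+ libraries, 39.1, 26.9 and 28.2 CPM in Nestin+ libraries, and 97.9, 123 and 146 CPM in CD133+ libraries. Every library sorted for the Nestin reporter lay below every CD133+ library. The change was -1.93 ± 0.31 in Nestin+ versus CD133+ (limma adjusted p = 0.00221) and -1.61 ± 0.31 in CD133+Nestin+ versus CD133+ (adjusted p = 0.0212). The second call was lost without the CD133+Nestin+ library of sort 3 and without the CD133+ library of sort 2 or of sort 3, with an adjusted p of at most 0.119.

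Slc2a1, the glucose transporter of the blood-brain barrier and of many other cells (chr4:119108711-119137983, plus strand), had 173, 120 and 157 CPM in CD133+Nestin+ libraries, 146, 69.8 and 131 CPM in Nestin+ libraries, and 199, 272 and 347 CPM in CD133+ libraries. The CD133+ libraries were again the 3 highest. The change was -1.26 ± 0.33 in Nestin+ versus CD133+ (limma adjusted p = 0.0304), and -0.84 ± 0.33 in CD133+Nestin+ versus CD133+, which was not called (adjusted p = 0.301). An antisense gene overlaps 105 bases of its exons. The other glucose transporter of the set, Slc2a3, known from neurons, lay the other way round. It had 14.5, 14.9 and 13.8 CPM in CD133+Nestin+ libraries, 18.5, 16.8 and 26.6 CPM in Nestin+ libraries, and 8.53, 7.86 and 16.3 CPM in CD133+ libraries. Each Nestin+ library was above each CD133+ library, and the change of 0.90 ± 0.32 was not called (limma adjusted p = 0.103). With the sort number as a block, it was called higher (adjusted p = 0.0404).

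Adm, which encodes the vasodilator peptide adrenomedullin (chr7:110627661-110629820, plus strand), was near the low end of the set in cells sorted for the Nestin reporter. It had 1.04, 0.53 and 1.81 CPM in CD133+Nestin+ libraries, 1.17, 0.587 and 1.08 CPM in Nestin+ libraries, and 4.14, 9.86 and 32.9 CPM in CD133+ libraries. The groups did not overlap, although the CD133+ libraries varied widely among themselves. The change was -2.68 ± 0.58 in Nestin+ versus CD133+ (limma adjusted p = 0.0109) and -2.58 ± 0.58 in CD133+Nestin+ versus CD133+ (adjusted p = 0.0419). The first call was lost without the Nestin+ library of sort 2 (adjusted p = 0.0552). The second was lost without any 1 library other than the CD133+ library of sort 1, with a pseudocount of 0.1, with no filter and with the listed genes rescaled (adjusted p of at most 0.133).

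Bnip3, a mitochondrial protein of the autophagy of mitochondria (chr7:138890836-138909519, minus strand), had 89.6, 99.7 and 115 CPM in CD133+Nestin+ libraries, 65.2, 44.6 and 62.7 CPM in Nestin+ libraries, and 104, 140 and 108 CPM in CD133+ libraries. Here the Nestin+ libraries were the 3 lowest, and the CD133+Nestin+ libraries overlapped the CD133+ libraries. The change was -1.02 ± 0.25 in Nestin+ versus CD133+ (limma adjusted p = 0.0194). In CD133+Nestin+ versus Nestin+ it was 0.82 ± 0.25 and not called (adjusted p = 0.122). An antisense gene overlaps 504 bases of Bnip3 exons. Adding the CPM of near-identical copies to Bnip3 kept its call.

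**Figure D3:**
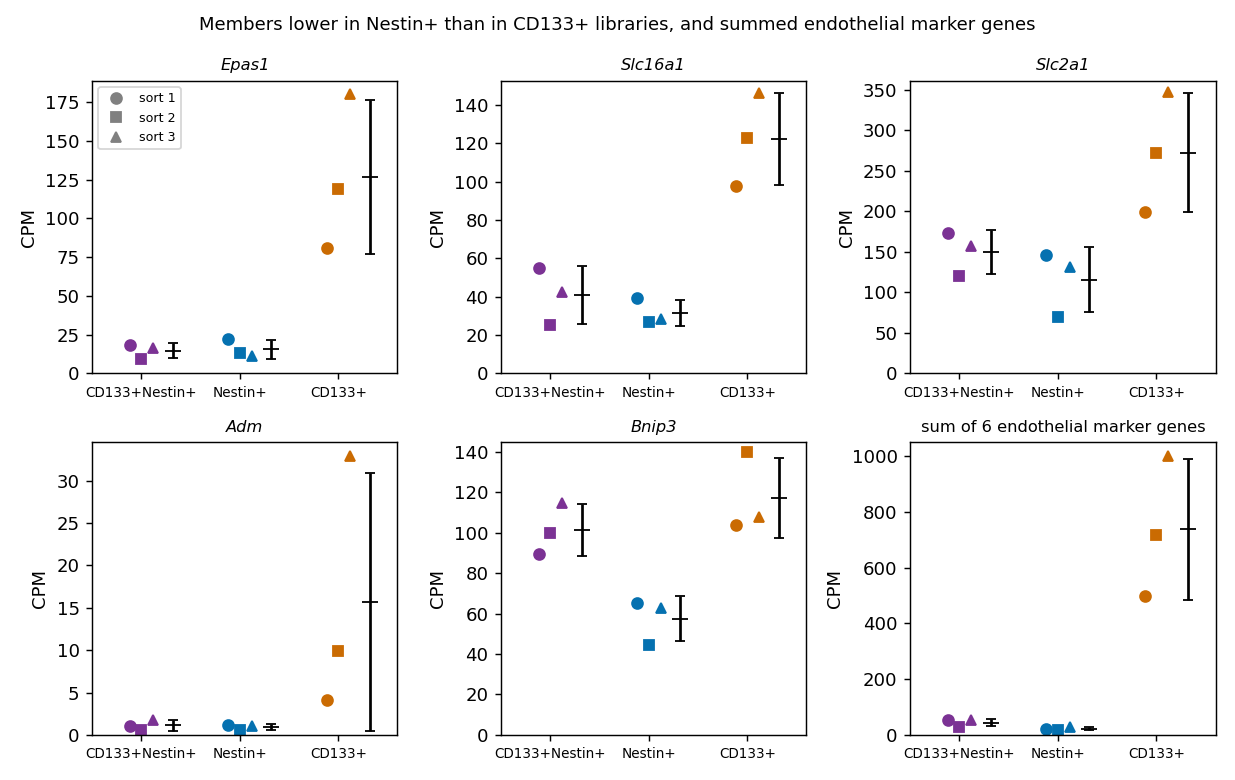
CPM of the 5 genes called lower in Nestin+ than in CD133+ libraries, and the summed CPM of 6 endothelial marker genes. Points are single libraries with a symbol for each sort number, and bars beside them give the mean and SD of 3 libraries. For Epas1, Slc16a1, Slc2a1, Adm and the endothelial sum, all 3 CD133+ libraries lie above the other 6, and for Bnip3 the Nestin+ libraries lie lowest.

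Leaving out 1 library changed how many of the 5 were called in Nestin+ versus CD133+. Without the Nestin+ library of sort 2, only Epas1 and Slc16a1 were called lower, where 6.18% of all genes were. Without the CD133+ library of sort 2 or that of sort 3, Adm, Epas1 and Slc16a1 were, where 5.59% and 6.71% of all genes were. Without the Nestin+ library of sort 3 Slc2a1 alone was lost (6.72% of all genes lower). These shares are below the 9.42% with all libraries. Over all alternatives the adjusted p was 0.009 to 0.127 for Slc2a1 and 0.00999 to 0.0907 for Bnip3. Without the CD133+ library of sort 3, Slc2a3 was called higher, as were 1.48% of all genes. With the sort number as a block, 6 members were lower, with Pdk3, a pyruvate dehydrogenase kinase, added (adjusted p = 0.0447). The same 6 were lower with no block and without the CD133+Nestin+ library of sort 2, where 12.7% of all genes were. The block also called 2 members higher, Slc2a3 and Ldhb (adjusted p = 0.0395 for Ldhb), where 13.1% of all genes were lower and 6.06% higher. With the block and without the CD133+Nestin+ library of sort 2, 5 were higher, with Eno2, Mxi1 and Vegfa added, and 8 were lower, with Hk2 and Pfkl added to the 6. In that fit 11.5% of all genes were higher and 19.2% lower.

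Marker genes of other cell types moved with these calls. Of 10 endothelial markers, 6 were in the table, and Tek, Tie1, Cdh5 and Emcn were not analysed here. Their sum was 28.2 to 52.3 CPM in CD133+Nestin+, 16.6 to 28.2 CPM in Nestin+ and 497 to 1000 CPM in CD133+ libraries. Within CD133+, the library of sort 3 had the highest sum of endothelial, of mural and fibroblast, and of immediate early and stress genes. It was also the highest for Epas1, Slc16a1, Slc2a1 and Adm. Other lists given below did not follow this order. In CD133+ libraries of sorts 1, 2 and 3, microglial sums were 2655, 918 and 1240 CPM, and erythroid sums 1537, 783 and 1060 CPM. Ependymal sums were 1427, 3401 and 1550 CPM. Cldn5, a tight junction gene of brain endothelium, had 13.7, 1.95 and 9.07 CPM in CD133+Nestin+, 1.03, 0.13 and 0.0618 CPM in Nestin+, and 187, 207 and 321 CPM in CD133+ libraries. The 6 of 10 mural and fibroblast markers in the table summed to 97.8 to 167 CPM in CD133+Nestin+, 63.9 to 96.1 CPM in Nestin+ and 724 to 1453 CPM in CD133+ libraries. All 10 microglial markers summed to 39.5 to 311 CPM in CD133+Nestin+, 35.4 to 102 CPM in Nestin+ and 918 to 2655 CPM in CD133+ libraries. Of 7 erythroid genes, 5 were in the table and summed to 60.6 to 118 CPM in CD133+Nestin+, 24.4 to 344 CPM in Nestin+ and 783 to 1537 CPM in CD133+ libraries. Bnip3 was instead lowest in Nestin+, as were the 10 ependymal markers, which summed to 1091 to 1444 CPM in CD133+Nestin+, 192 to 212 CPM in Nestin+ and 1427 to 3401 CPM in CD133+ libraries. Highest in Nestin+, as Slc2a3 was, were 8 markers of oligodendrocyte precursors, with sums of 252 to 701 CPM in CD133+Nestin+, 1013 to 1541 CPM in Nestin+ and 110 to 258 CPM in CD133+ libraries. The 7 of 8 neuronal markers in the table summed to 69.4 to 164 CPM in CD133+Nestin+, 179 to 228 CPM in Nestin+ and 36.5 to 116 CPM in CD133+ libraries. Of 7 tanycyte markers, 5 were in the table, and their sum was also highest in Nestin+. It was 127 to 243 CPM in CD133+Nestin+, 342 to 419 CPM in Nestin+ and 60.7 to 81.9 CPM in CD133+ libraries. The 10 radial glia and astrocyte genes summed to 4564 to 11192 CPM in CD133+Nestin+, 8732 to 15957 CPM in Nestin+ and 2836 to 8277 CPM in CD133+ libraries. Of their changes in Nestin+ versus CD133+, 7 were positive and 3 negative. No gene of these lists was at 0 in any library. Their part in the differences was not tested, and in bulk libraries fewer cells of a type and less RNA per cell cannot be told apart.

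HIF acts through its core motifs in promoters and enhancers, so the windows from 250 bases before to 50 after each annotated start were searched for them. These sequences come from RefSeq (GRCm38.p6, equal to mm10 in coordinates), each printed 5′ to 3′ on the strand of its gene. Capitals mark ACGTG or GCGTG on either strand, so CACGT and CACGC are their reverse complements, and CACGTG holds ACGTG on both strands. Slc2a1, Slc16a1, Bnip3 and Adm are shown because they were called and had an entry, and Pgk1 and Tpi1 because they differed with the sort number. This choice was made after their values were seen.
Slc2a1 chr4:119108495-119108794 (+): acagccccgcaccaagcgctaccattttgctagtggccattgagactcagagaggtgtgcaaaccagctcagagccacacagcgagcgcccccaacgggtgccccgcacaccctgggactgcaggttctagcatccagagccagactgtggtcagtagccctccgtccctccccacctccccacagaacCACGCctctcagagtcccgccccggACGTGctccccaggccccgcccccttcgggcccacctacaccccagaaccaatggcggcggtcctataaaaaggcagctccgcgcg
Slc16a1 chr3:104638414-104638713 (+): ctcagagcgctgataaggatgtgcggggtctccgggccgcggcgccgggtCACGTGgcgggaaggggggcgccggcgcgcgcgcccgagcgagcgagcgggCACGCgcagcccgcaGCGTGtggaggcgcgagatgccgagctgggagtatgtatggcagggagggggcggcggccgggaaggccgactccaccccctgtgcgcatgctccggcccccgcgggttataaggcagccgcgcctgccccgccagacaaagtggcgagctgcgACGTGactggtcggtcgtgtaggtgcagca
Bnip3 chr7:138909457-138909756 (-): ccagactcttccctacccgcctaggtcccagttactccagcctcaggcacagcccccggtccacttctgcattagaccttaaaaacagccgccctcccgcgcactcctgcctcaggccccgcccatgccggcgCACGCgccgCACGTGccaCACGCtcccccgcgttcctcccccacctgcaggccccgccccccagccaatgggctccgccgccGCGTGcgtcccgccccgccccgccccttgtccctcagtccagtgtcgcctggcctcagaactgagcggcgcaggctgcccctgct
Adm chr7:110627407-110627706 (+): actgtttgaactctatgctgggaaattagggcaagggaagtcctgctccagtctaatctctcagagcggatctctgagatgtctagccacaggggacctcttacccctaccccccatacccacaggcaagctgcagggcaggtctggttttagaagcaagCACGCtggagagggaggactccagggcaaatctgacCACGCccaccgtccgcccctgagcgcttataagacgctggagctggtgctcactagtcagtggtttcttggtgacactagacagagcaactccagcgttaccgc
Pgk1 chrX:106186850-106187149 (+): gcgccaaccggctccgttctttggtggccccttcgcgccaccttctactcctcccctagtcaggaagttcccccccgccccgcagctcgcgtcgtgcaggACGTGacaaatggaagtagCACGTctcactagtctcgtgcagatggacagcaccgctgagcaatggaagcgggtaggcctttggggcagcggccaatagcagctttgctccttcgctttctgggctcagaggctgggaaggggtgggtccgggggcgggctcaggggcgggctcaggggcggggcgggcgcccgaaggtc
Tpi1 chr6:124814109-124814408 (-): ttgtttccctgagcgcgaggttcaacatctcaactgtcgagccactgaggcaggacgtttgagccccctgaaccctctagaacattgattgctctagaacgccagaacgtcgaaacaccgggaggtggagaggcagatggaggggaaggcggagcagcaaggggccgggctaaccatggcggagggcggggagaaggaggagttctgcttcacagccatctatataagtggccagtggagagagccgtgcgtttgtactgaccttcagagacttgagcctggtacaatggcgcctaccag

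Slc2a1 had 1 ACGTG at -36 and 1 GCGTG at -61 relative to its start. Slc16a1 and Bnip3 each held a CACGTG, at -200 and -108. Pgk1, a phosphoglycerate kinase whose promoter is a textbook HIF target, had ACGTG at -150 and -131. Adm had only GCGTG, at -90 and -54, and neither motif was in the Tpi1 window. Of the 38 genes, 34 had at least 1 window in the RefSeq table, with 49 windows in all. ACGTG was in 59.2% of these member windows and in 19.6% of all 32851 windows of the same length. GCGTG was in 55.1% of member windows and 32.4% of all windows. G and C made up 63.0% of the bases of member windows and 53.8% of those of all windows. The set was chosen in part for genes induced by low oxygen, so these shares do not test whether HIF acts on its members. A motif match describes the letters and does not show binding.

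In CD133+Nestin+ against Nestin+ libraries, 0 of the 38 genes were called by limma, where 2.87% of all genes were higher and 0.254% lower. The groups did not overlap for 2 members that were higher and 2 that were lower, as for 11.1% and 6.21% of all genes. At an unadjusted p under 0.05, 2 members differed, as did 2124 of all 16143 genes. The authors' deposited table had 0 members under its threshold, against 2.59% of its genes. The median change over the members was 0.08, against -0.04 over all genes. The smallest adjusted p was that of Pfkl, the phosphofructokinase known from liver. It had 266, 190 and 238 CPM in CD133+Nestin+ libraries, 154, 106 and 98.6 CPM in Nestin+ libraries, and 213, 127 and 166 CPM in CD133+ libraries. Every CD133+Nestin+ library was above every Nestin+ library, with a change of 0.96 ± 0.28 (limma adjusted p = 0.118). With the sort number as a block, Pfkl was called higher in CD133+Nestin+ (adjusted p = 0.0124), where 4.97% of all genes were higher and 1.12% lower. It was also called with listed genes rescaled, where 2.3% of all genes were higher. The ependymal sum moved in the same direction in this comparison, but its largest value, 3401 CPM, was in a CD133+ library. Of 6 choroid plexus markers, 3 were in the table. They summed to 58.7 to 61.8 CPM in CD133+Nestin+, 15.1 to 28.8 CPM in Nestin+ and 34.8 to 42.4 CPM in CD133+ libraries. The part of either list in this value was not tested.

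With all libraries and no block, none of the enzymes from hexokinase to pyruvate kinase was called between populations by limma. The exceptions in other fits were Pfkl, Hk2 and Eno2, as given above. Of 9 genes from hexokinase to triosephosphate isomerase, 0 were called in any of the 3 comparisons in that fit, and their changes in Nestin+ versus CD133+ lay between -0.72 and 0.52. Hk2, the inducible hexokinase, averaged 12.5 ± 3.39 CPM in CD133+Nestin+, 10.2 ± 2.33 CPM in Nestin+ and 18.6 ± 9.19 CPM in CD133+ libraries (SD, n = 3 each). Of 6 genes from Gapdh to Pkm, 0 were called, with changes in Nestin+ versus CD133+ between -0.35 and 0.74. In all, 1 unadjusted p in these 2 groups of enzymes was under 0.05, that of Pfkl in CD133+Nestin+ versus Nestin+. Among the enzymes with several isoforms, Hk1, the constitutive hexokinase, ranged from 34.5 to 89.5 CPM over the 9 libraries. Pfkm and Pfkp, the phosphofructokinases known from muscle and platelets, ranged from 54.1 to 146 CPM and from 7.16 to 25.2 CPM. Pfkfb3, which makes the activator of phosphofructokinase, ranged from 23.9 to 59.8 CPM. The standard errors of the changes of these 15 genes were 0.27 to 0.50, and a p above the threshold does not show equal levels.

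Ldha, the muscle-type lactate dehydrogenase subunit, had 739, 288 and 499 CPM in CD133+Nestin+ libraries, 736, 414 and 278 CPM in Nestin+ libraries, and 653, 460 and 475 CPM in CD133+ libraries. Ldhb, the heart-type subunit, had 404, 236 and 343 CPM in CD133+Nestin+ libraries, 401, 224 and 327 CPM in Nestin+ libraries, and 301, 123 and 224 CPM in CD133+ libraries. For both, the libraries of each population overlapped those of the others. Within each sort number, however, Ldhb was higher in CD133+Nestin+ and in Nestin+ than in CD133+ libraries. With the sort number as a block its change of 0.60 ± 0.18 in Nestin+ versus CD133+ was called (limma adjusted p = 0.0395), and that of 0.66 ± 0.18 in CD133+Nestin+ versus CD133+ was not (adjusted p = 0.0703). Pdk1 and Pdk3, which phosphorylate and inhibit pyruvate dehydrogenase, ranged from 19 to 50.9 CPM and from 7.14 to 26.1 CPM over the 9 libraries. With all libraries and no block, neither they nor Slc16a3 were called by limma in any comparison, and Pdk3 was called lower in Nestin+ with the block, as given above. Pdk3 averaged 12.0 ± 3.10 CPM in CD133+Nestin+, 8.56 ± 1.23 CPM in Nestin+ and 19.0 ± 6.32 CPM in CD133+ libraries, and every Nestin+ library was below every CD133+ library. Slc16a3 had 0.298 CPM and Ndrg1 0.199 CPM in the CD133+Nestin+ library of sort 2, against at least 2.25 and 5.28 CPM in every other library.

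Among the 4 HIF and sensor genes, the hydroxylases Egln1 and Egln3 were not called. Egln3, itself induced by HIF, averaged 3.65 ± 0.089 CPM in CD133+Nestin+, 2.86 ± 0.987 CPM in Nestin+ and 1.70 ± 0.929 CPM in CD133+ libraries. Of 11 genes induced by low oxygen, 2 were lower in Nestin+ versus CD133+, which were Adm and Bnip3, and 0 were higher. Changes in this group lay between -2.68 and 1.01, with 6 positive and 5 negative. The largest positive one was that of Vegfa, the main angiogenic ligand, which had 2.22, 6.39 and 5.18 CPM in CD133+Nestin+, 3.44, 9.22 and 8.56 CPM in Nestin+ and 2.74, 2.14 and 3.52 CPM in CD133+ libraries. Its change of 1.01 ± 0.43 in Nestin+ versus CD133+ was not called (limma adjusted p = 0.184). Ddit4, an inhibitor of mTOR signalling, had a change of 0.83 in the same comparison, and Ankrd37, a small ankyrin repeat protein, one of -0.84. Mxi1, a repressor that competes with Myc for its partner, averaged 61.9 ± 18.2 CPM in CD133+Nestin+, 57.4 ± 25.3 CPM in Nestin+ and 34.7 ± 3.79 CPM in CD133+ libraries. P4ha1 and P4ha2, the collagen prolyl hydroxylase subunits, ranged from 33.5 to 82.5 CPM and from 6.11 to 28.4 CPM over the 9 libraries. Bnip3l, the close relative of Bnip3, ranged from 111 to 188 CPM, and Ero1l, an oxidase of the endoplasmic reticulum, from 6.62 to 12.7 CPM. With all libraries, none of the genes from Ddit4 to Ero1l was called by limma in any comparison, and Mxi1 was called higher in Nestin+ versus CD133+ with the block and without the CD133+Nestin+ library of sort 2.

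Ratios of related genes within a library do not depend on how that library was scaled. Slc2a1 to Slc2a3 was 11.9, 8.02 and 11.4 in CD133+Nestin+ libraries, 7.89, 4.16 and 4.93 in Nestin+ libraries, and 23.3, 34.7 and 21.2 in CD133+ libraries. The 3 populations did not overlap, with a log2 difference of 0.91 for CD133+Nestin+ over Nestin+, and of -1.33 for CD133+Nestin+ and -2.24 for Nestin+ against CD133+. Hk2 to Hk1 was also separate, with 0.14, 0.269 and 0.183 in CD133+Nestin+ and 0.132, 0.129 and 0.204 in Nestin+ libraries, all below the 0.549, 0.31 and 0.307 of CD133+ libraries. Ldha to Ldhb was 1.83, 1.22 and 1.45 in CD133+Nestin+, 1.84, 1.85 and 0.85 in Nestin+, and 2.17, 3.73 and 2.12 in CD133+ libraries. Both differences from CD133+ were without overlap, at -0.80 for CD133+Nestin+ and -0.86 for Nestin+. The first was -0.53 without the CD133+ library of sort 2, and the second -0.49 without the Nestin+ library of sort 3. Epas1 to Hif1a differed by -3.28 in both populations against CD133+. Eno2, the neuronal enolase, to Eno1 overlapped in all 3 comparisons. Each comparison without overlap had p = 0.1 in a two-sided exact permutation test, the smallest that 3 against 3 allows, and 0.167 after adjustment over the 15 tests, so none can reach 0.05. These are ratios of CPM and not of levels per length.

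**Figure D4:**
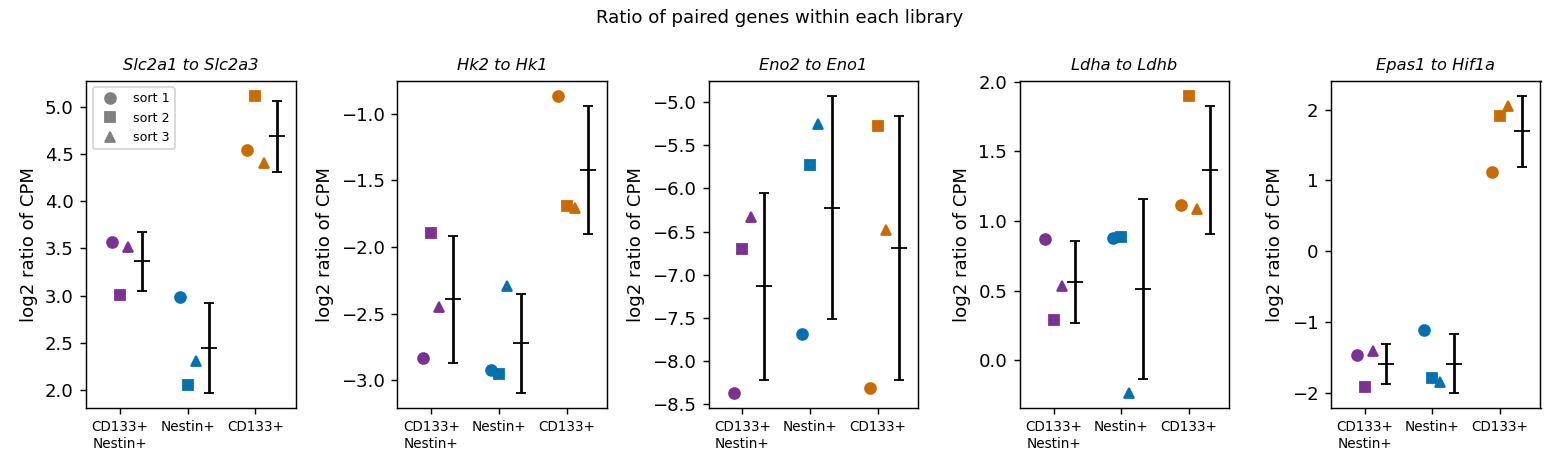
Log2 ratio of CPM of 5 gene pairs in each library, with the mean and SD of 3 libraries per population and a symbol for each sort number. The axes differ between panels and do not start at 0. Slc2a1 to Slc2a3 separates all 3 populations, Hk2 to Hk1, Ldha to Ldhb and Epas1 to Hif1a set CD133+ above the others, and Eno2 to Eno1 overlaps.

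The glycolytic enzymes varied with the sort number, across all 3 populations. The 17 enzymes from hexokinase to lactate dehydrogenase summed to 5661, 2840 and 4032 CPM in CD133+Nestin+ libraries of sorts 1, 2 and 3, to 5374, 3026 and 2970 CPM in Nestin+ libraries, and to 4756, 2592 and 3598 CPM in CD133+ libraries. Sort 1 was the highest in each population. Of these 17 genes, 12 were highest in sort 1 in all 3 populations, where 17.7% of all genes were: Gpi1, Pfkl, Pfkm, Aldoa, Tpi1, Gapdh, Pgk1, Pgam1, Eno1, Pkm, Ldha and Ldhb. Over all 38 members, 13 were, with Egln1 added. None of the 11 genes induced by low oxygen and neither glucose transporter was among them. Eno2 went the other way and was lowest in sort 1 in each population, as were 17% of all genes.

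In a limma F test over the 3 sort numbers in a fit with population, 6 members were called, where 8.77% of all genes were: Eno1 (adjusted p = 0.0224), Ldhb (0.0274), Tpi1 (0.0312), Pkm (0.0349), Pgk1 (0.0419) and Gpi1 (0.0499). Eno1 had 891, 324 and 481 CPM in CD133+Nestin+ libraries of sorts 1, 2 and 3, 994, 506 and 410 CPM in Nestin+ libraries, and 756, 246 and 468 CPM in CD133+ libraries. Tpi1, the triosephosphate isomerase, had 354, 144 and 216 CPM in CD133+Nestin+, 318, 161 and 108 CPM in Nestin+, and 362, 157 and 214 CPM in CD133+ libraries. For both, the 3 libraries of sort 1 lay above the other 6. The mean of sort 1 exceeded that of sorts 2 and 3 by 1.15 for Eno1 and 1.08 for Tpi1 on the log2 scale.

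**Figure D5:**
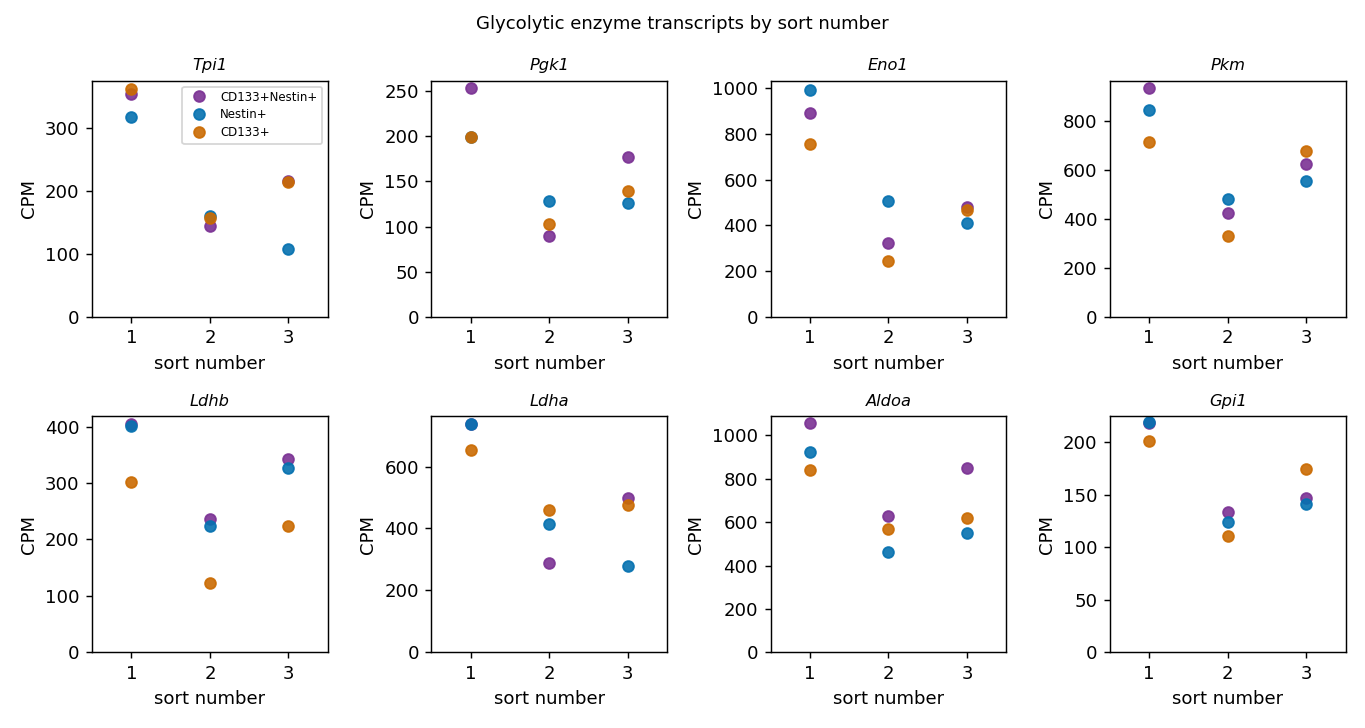
CPM of 8 glycolytic enzyme genes by sort number, with a point for each library coloured by population. In each panel and population the sort 1 library is the highest, as for Eno1 with 756 to 994 CPM in sort 1 and 246 to 506 CPM in sorts 2 and 3. This follows from the choice of genes, as all 8 are among the 12 of 17 enzymes highest in sort 1 in all 3 populations. Eno2, not shown, was lowest in sort 1 in each population.

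These 6 calls rest on the libraries of sort 1 and on the scaling. Leaving out the sort 1 library of CD133+Nestin+, Nestin+ or CD133+ left 0 members called, and 0.417%, 0.187% and 2.35% of all genes, so the calls fell among all genes too. Eno1 and Tpi1 alone were called without the CD133+Nestin+ or the Nestin+ library of sort 3 (4.37% and 3.65% of all genes), and Eno1 alone without the CD133+ library of sort 2 or of sort 3 (4.23% and 2.58%). Without the CD133+Nestin+ library of sort 2 there were 10 calls (15.3% of all genes), and with each library centred on its median 10 as well (10.1%). With neither trend nor robust prior in limma, Eno1 alone was called (5.07% of all genes). The same held with each library rescaled to the sum of its listed genes (9.29%). In that scaling 10 of the 17 enzymes were highest in sort 1 in all 3 populations, where 9.94% of all genes were, and the enzyme sum was again highest in sort 1 in each population. Several other measures moved with the sort number, and their part in this pattern was not tested. The share of the CPM total held by the listed genes was 87.6%, 65.9% and 81.0% in CD133+Nestin+ libraries of sorts 1, 2 and 3, 87.3%, 70.4% and 77.6% in Nestin+ libraries, and 87.3%, 77.7% and 79.3% in CD133+ libraries. Malat1, a nuclear non-coding RNA, had 1083, 4549 and 3451 CPM in CD133+Nestin+, 1306, 7682 and 3830 CPM in Nestin+, and 894, 3217 and 3242 CPM in CD133+ libraries. The sum of 10 immediate early and stress genes was 340 to 625 CPM in sort 1 and 893 to 4458 CPM in sorts 2 and 3. The sum of 10 radial glia and astrocyte genes was highest in sort 1 in each population, at 11192 CPM in CD133+Nestin+, 15957 CPM in Nestin+ and 8277 CPM in CD133+ libraries.

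A further 76 genes of glycolysis, the hypoxia response and the pentose phosphate pathway were listed, of which 62 were in the table. In Nestin+ versus CD133+, 3 of the 62 were lower and 0 higher, where 9.42% and 2.45% of all genes were. At an unadjusted p under 0.05, 11 of the 62 differed, as did 3720 of all 16143 genes. Without the CD133+Nestin+ library of sort 2, 6 were lower and 1 was higher (Arnt2), where 12.7% of all genes were lower and 4.57% higher. Hkdc1 alone was lower without the Nestin+ library of sort 1 or of sort 2 or the CD133+ library of sort 2 or of sort 3, where 7.21%, 6.18%, 5.59% and 6.71% of all genes were. In CD133+Nestin+ versus CD133+, 1 was lower (Tfrc), where 2.12% of all genes were. In CD133+Nestin+ versus Nestin+, 1 was higher (Hkdc1), where 2.87% of all genes were. Hkdc1, a hexokinase-like gene, had 14.2, 24 and 15.3 CPM in CD133+Nestin+ libraries, 2.85, 1.86 and 1.88 CPM in Nestin+ libraries, and 11, 44.4 and 17.5 CPM in CD133+ libraries. The Nestin+ libraries were the 3 lowest, with changes of -2.77 ± 0.45 in Nestin+ versus CD133+ (limma adjusted p = 0.00243) and 2.54 ± 0.45 in CD133+Nestin+ versus Nestin+ (adjusted p = 0.0121). The second call was lost without the CD133+Nestin+ library of sort 3 or the Nestin+ library of sort 2 or 3 (adjusted p of at most 0.0682). Hkdc1 moved with the ependymal markers given above, and with those in CD133+ libraries, which summed to 1427 to 3401 CPM. Their part was not tested.

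Tfrc, the transferrin receptor, which is induced by low oxygen and known from erythroid cells and brain endothelium, was lower in both populations sorted for the Nestin reporter. It had 16.6, 17.8 and 22.3 CPM in CD133+Nestin+ libraries, 25, 29.5 and 25.5 CPM in Nestin+ libraries, and 37, 112 and 145 CPM in CD133+ libraries. Its changes were -2.12 ± 0.42 in CD133+Nestin+ versus CD133+ (limma adjusted p = 0.0242) and -1.63 ± 0.42 in Nestin+ versus CD133+ (adjusted p = 0.0279). Both calls of Tfrc were lost with the listed genes rescaled and without the CD133+ library of sort 2 or of sort 3. The first was also lost without the CD133+Nestin+ library of sort 2 or of sort 3 (adjusted p of at most 0.124), and the second without any 1 Nestin+ library (at most 0.136). The erythroid and endothelial sums given above were, as Tfrc was, highest in CD133+ libraries. Within CD133+, Tfrc rose from sort 1 to sort 3. So did the endothelial sum (497, 716 and 1000 CPM), the mural and fibroblast sum (724, 851 and 1453 CPM) and the immediate early and stress sum (625, 947 and 4458 CPM). The erythroid sum was 1537, 783 and 1060 CPM. The part of any of these lists was not tested. With the sort number as a block, 3 of the 62 were higher and 7 lower in Nestin+ versus CD133+. Of all genes, 6.06% were higher and 13.1% lower in that fit. The higher ones were Aldoc, the brain aldolase (a change of 1.14, adjusted p = 0.0143), Arnt2, a HIF partner (0.81, adjusted p = 0.0186), and Pdp2, a pyruvate dehydrogenase phosphatase (0.93, adjusted p = 0.0173). The lower ones added by the block were Cited2, a HIF-induced transcriptional co-regulator (-1.42, adjusted p = 0.0364), Fam162a, a HIF-induced mitochondrial protein (-1.0, adjusted p = 0.0442), Loxl2, a lysyl oxidase (-1.30, adjusted p = 0.0350), and Pgls, a lactonase of the pentose phosphate pathway (-1.26, adjusted p = 0.0361). In CD133+Nestin+ versus Nestin+ the block added 2 lower genes, Aldoc (-1.09, limma adjusted p = 0.0405) and Hif3a, a HIF alpha gene (-1.41, adjusted p = 0.0326). There, 1.12% of all genes were lower. Of 7 pentose phosphate genes, 0 were called between populations with all libraries and no block. Without the Nestin+ library of sort 3, Pgls was lower in Nestin+ versus CD133+ and higher in CD133+Nestin+ versus Nestin+. Of all genes, 6.72% were lower in the first comparison and 218 of 16003 were higher in the second. In all, 4 of the 7 (G6pdx, Pgd, Tkt and Taldo1) were highest in sort 1 in all 3 populations, as were 17.7% of all genes. The other lists did not repeat this. Of 26 other glycolysis genes, 3 were highest and 2 lowest in sort 1 in all 3 populations. Of 29 other hypoxia genes, 3 were highest and 6 lowest, where 17% of all genes were lowest. The limma F test over sort numbers called 9 of the 62, where 8.77% of all genes were called.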

How the data were processed

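Per the labels' protocols, total RNA of 9 sorted samples was made into indexed libraries and read on an Illumina HiSeq. Groups came from the labelled cell population. Per the submitters' processing notes, the mm10 build, STAR 2.5.3a, Partek 8.0, bcl2fastq and limma were used, in roles that are not stated. Gene annotation, strand use and multiply mapped reads are not given in the sources used here.

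The deposited expression table states no unit. Its values look like CPM to which the authors added 0.0001. In each library, 43.4% to 57.1% of low values fell on a whole number of reads (tolerance 0.02 reads), too few for a count test. The authors' second deposited table, with p-values, step-up false discovery rates and ratio values per the file headers, serves as their own result.

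The filter required 1 CPM in 3 libraries and kept 16143 genes (2186 removed). Log2(CPM + 1) was fitted with limma 3.58.1 in R 4.3.3 (trended, robust; 6 residual degrees of freedom). The script was tested on simulated data, drawn independently for each library and fitted with no block. They held no shared effect of the sort number, so the fits with a block were not tested in this way. Ratios used two-sided exact permutation tests. The members, gene lists and markers were chosen with earlier results of these data known. Members called in a comparison, Hif1a, Epas1, Slc2a1, Slc2a3, Ldha and Ldhb were described in every library, with a few others chosen after their values were seen. Same-numbered libraries of different populations deviated together, with r of 0.204 to 0.73 in 9 pairs. In 18 pairs with different numbers, r was -0.527 to 0.314. The labels share sort numbers between populations but do not state that these pair the libraries, so a pairing is only hinted at. The main limma comparisons of populations and the permutation tests did not use it. Their SEs and p-values therefore ignore any pairing unless a block is named. The block called 3094 of all genes in Nestin+ versus CD133+, against 1915 with no block. Values with the sort number as a block are given where they change a call. Alternatives changed the pseudocount, filter, scaling, prior and the libraries used. Gene positions and near-identical copies (blastn 2.17.0) came from GENCODE release M21 and promoters from RefSeq. The values of 1 gene among the other pathway genes are not reported here, although it is included in their counts.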

Additional observations from a re-analysis of the deposited data

How the results depend on the processing

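With 3 libraries a group, most limits lie in the spread between libraries. In all, 232 alternative values were computed for the changes of called members and other pathway genes: none changed sign, 187 kept their call and 45 lost it. The calls of Epas1 in both comparisons with CD133+ and of Slc16a1 and Hkdc1 in Nestin+ versus CD133+ were lost in no alternative. Median centring moved the median change of all genes by 0.135 in Nestin+ versus CD133+ and by 0.128 in CD133+Nestin+ versus CD133+. The other scalings, pseudocount and filters left the count of members lower in Nestin+ versus CD133+ at 4 or 5.

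Leaving out 1 library at a time, members lower in Nestin+ versus CD133+ numbered 2 to 6 and members higher 0 to 1, members lower in CD133+Nestin+ versus CD133+ numbered 1 to 3, members in the F test over populations 2 to 4 (4 with all libraries) and in that over sort numbers 0 to 10. Other pathway genes numbered 1 to 6 lower and 0 to 1 higher in Nestin+ versus CD133+, 0 to 1 lower in CD133+Nestin+ versus CD133+ and 0 to 1 higher in CD133+Nestin+ versus Nestin+. Ratio differences ranged from -0.34 to 1.21, -1.26 to 0.26 and -1.65 to -0.30 for Eno2 to Eno1 (Nestin+ versus CD133+, CD133+Nestin+ versus CD133+, CD133+Nestin+ versus Nestin+), from -0.31 to 0.25 for Ldha to Ldhb and from -0.14 to 0.24 for Epas1 to Hif1a in CD133+Nestin+ versus Nestin+, so that all of these but the Eno2 to Eno1 difference in CD133+Nestin+ versus Nestin+ changed sign. With libraries of sorts 2 and 3 only, chosen after seeing the data, the last of these was 0.17, against -0.00 with all libraries.

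The replicate block gave 2 members higher in Nestin+ versus CD133+, 1 higher in CD133+Nestin+ versus Nestin+ (Pfkl) and 7 in the F test over populations, and, among other pathway genes, 3 higher and 7 lower in Nestin+ versus CD133+ and 2 lower in CD133+Nestin+ versus Nestin+. The block without the CD133+Nestin+ library of sort 2, an alternative added after seeing the data, gave 5 members higher and 8 lower in Nestin+ versus CD133+, and again 1 higher (Pfkl) in CD133+Nestin+ versus Nestin+. With listed genes rescaled, Pfkl was called as well (1 member), other pathway genes in Nestin+ versus CD133+ were 1 higher (Arnt2, also 1 with median centring) and 1 lower, and 0 were lower in CD133+Nestin+ versus CD133+. The F test over sort numbers called 10 members with median centring, 1 with listed genes rescaled and 1 with no trend and no robust prior. The cause of these differences was not tested.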
